A study of Arabidopsis thaliana with 8 samples.

Results

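The shoot of a seedling whose root has been cut was followed here through time, by setting the shoots of root-wounded Arabidopsis thaliana seedlings at 360 min after the cut against those at 30 min. The members are the wounded RNA samples, 4 of the 8 RNA samples of the study, defined by their treatment label. They and the gene lists below were chosen with earlier results of these data known. There were 2 biological replicates at 30 min and 2 at 360 min, and the 4 samples that complete the study are shoots of unwounded seedlings of the same times, with 2 replicates each. All seedlings were of the Columbia-0 (Col-0) ecotype, 13 days old, and had grown on Murashige and Skoog agar with 3% sucrose at 22 °C under 16 h of light and 8 h of dark. Wounded seedlings had the primary root injured by razor blade at a distance of 5 mm from the base of the shoot, so the tissue that was measured had not itself been cut. The labels describe no mock handling of the unwounded seedlings, no number of seedlings per sample and no hour of harvest. Time since the cut therefore cannot be told apart from hour of day or from the hours of further growth within the wounded samples. The unwounded shoots of the same times were used to show how much of each change they shared.

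Each of the 8 arrays was a 2-colour Agilent oligonucleotide microarray that held wounded RNA in one dye and unwounded RNA of the same time and replicate in the other, and every pair was hybridised again with the dyes exchanged. The wounded channel, which is Cy5 on one array of a pair and Cy3 on its partner, was taken from all 8 arrays, and the mean of the log2 intensities of a pair gave 1 value per sample. Levels below are log2 intensities given in the order replicate 1, replicate 2, and a difference of 1 on this scale is a doubling. Intensities of different probes were not set against each other.

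Jasmonates are lipid-derived hormones made when plant tissue is injured. The jasmonoyl-isoleucine conjugate lets the receptor COI1 remove JAZ repressor proteins, which frees factors such as MYC2, and the JAZ genes and the genes of jasmonate synthesis are themselves among the targets of this pathway. Heat shock factors switch on chaperone genes when proteins unfold, and the circadian clock sets a daily rhythm in much of the leaf transcriptome, so samples taken hours apart differ by time of day even without any treatment.

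Signal was weaker on the 30 min arrays than on those of 360 min. Between 72.3% and 88.6% of gene spots were well above background in the wounded channel of the 30 min arrays, and between 89.6% and 94.9% were on the 360 min arrays. Replicate 1 at 30 min was the dimmest sample. Across genes the replicates correlated at r = 0.948 at 30 min and r = 0.978 at 360 min, where genes are not independent replicates. The median absolute log2 difference was 0.295 between the 30 min replicates and 0.19 between the 360 min replicates, against 0.223 to 0.324 between samples of different times. The files give the day on which each scanned image was read by the Feature Extraction software, and each of these 4 days held 1 replicate of 1 time. Day therefore cannot be told apart from replicate, and every difference between the times is also one between days. All 7 leaf mesophyll markers were well above background on all 8 arrays, and their summed intensity was 257100 and 254200 at 30 min and 240900 and 259300 at 360 min. Root markers summed to 2107 and 2554 at 30 min and 2471 and 2769 at 360 min, with 6 of 9 well above background on all 8 arrays. Epidermis and guard cell markers summed to 3069 and 3162, then 1941 and 2925, and shoot meristem markers to 1219 and 1239, then 1038 and 1047. No marker of these lists was below background on every array, and limma called 0 markers of the 4 lists between the times (0 root, 1 mesophyll, 1 epidermis and guard cell and 1 meristem marker at an unadjusted p under 0.05). In bulk RNA a change in the share of a cell type and a change in RNA per cell cannot be told apart.

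Between 30 and 360 min, 399 genes rose and 605 fell in root-wounded shoots, of 18679 tested by limma's moderated test at a Benjamini-Hochberg adjusted p under 0.05. These are 5.38% of the genes tested in either direction, 2.14% in the higher and 3.24% in the lower direction. The change was at least 2-fold for 266 rising and 386 falling genes. The median log2 difference over all genes tested was -0.03, and its median standard error was 0.253 with n = 2 per time, except that 73 of the called genes had a value from 1 replicate only at a time. In 982 of the 1004 called genes the 4 wounded array values of one time did not overlap those of the other. The calls were made from these same values, and the 4 arrays of a time hold 2 samples. The count is thus no separate support for the calls, and the share over all genes tested is not given here. At an unadjusted p under 0.05 there were 2644 genes. With arrays centred on their median in place of quantile scaling, 513 genes rose and 500 fell, so the larger number of falling genes depends on the scaling. The count depended on single samples, since it was 2817 without replicate 2 at 30 min, 1179 without replicate 1 at 30 min, 410 without replicate 1 at 360 min and 434 without replicate 2 at 360 min.

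Unwounded shoots also changed over these hours, with 257 genes higher and 282 lower at 360 min. That is 2.89% of the genes tested, 1.38% higher and 1.51% lower. The unwounded count of 539 was 1197 without replicate 1 and 2544 without replicate 2 at 30 min, and 216 without replicate 1 and 224 without replicate 2 at 360 min, so the shares below depend on single samples. Of the 399 genes that rose in wounded shoots, 215 (53.9%) also rose in unwounded shoots, which are 83.7% of the genes that rose there. Of the 605 genes that fell in wounded shoots, 203 (33.6%) also fell in unwounded shoots, which are 72% of the genes that fell there. No gene was called in opposite directions. Both sets of samples were read from the same arrays, so errors of an array are shared between them.

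The difference of the time changes, wounded minus unwounded, was tested from the ratios within arrays. It was called for 1456 genes, 7.79% of those tested, 2.72% in the higher and 5.07% in the lower direction. This count was 171 without replicate 1 and 178 without replicate 2 at 30 min, so the counts that follow depend on having both 30 min replicates. This difference is computed from the same wounded samples as the time change itself. Of the genes that rose in wounded shoots, 112 (28.1%) rose more there than in unwounded shoots, 7 rose less and 280 had no called difference. Of the genes that fell, 302 (49.9%) fell more in wounded shoots, 12 fell less and 291 had no called difference. The median log2 difference of the genes that rose was 1.15 in wounded and 0.934 in unwounded shoots, and of the genes that fell it was -1.11 and -0.714. Of the genes that fell, 277 (45.8%) were not called in unwounded shoots and had a called difference in the same direction, and of the genes that rose, 76 (19%) did so.

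**Figure D1:**
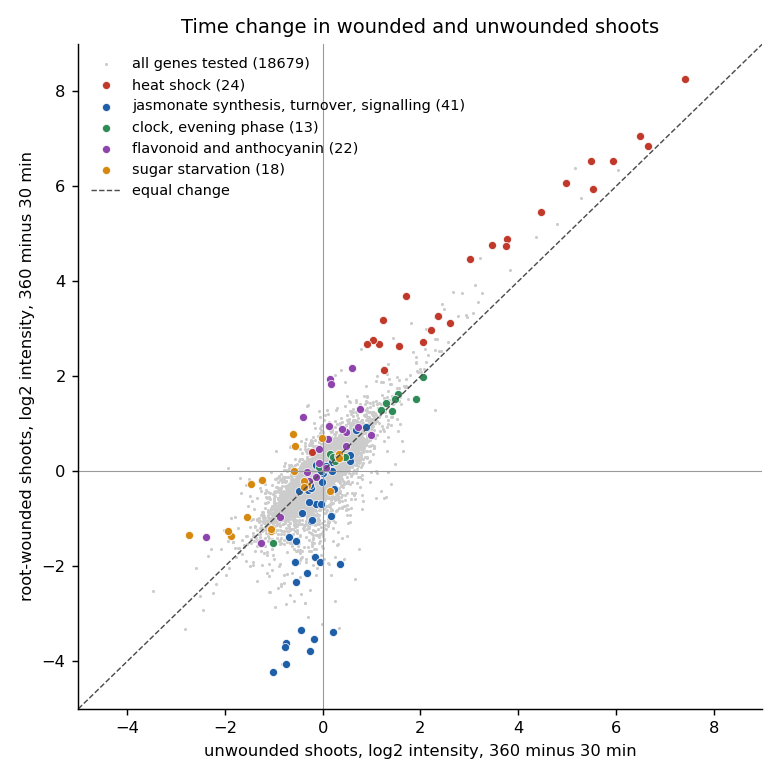
Change from 30 to 360 min of each gene tested, in log2 units, with unwounded shoots on the horizontal and wounded shoots on the vertical axis, genes of 5 sets of lists in colour and a dashed line of equal change. Heat shock genes such as AT1G07400 (8.27 in wounded, 7.41 in unwounded shoots) lie far up in both, while jasmonate genes such as LOX3 (-4.23 and -1.02) and OPR3 (-3.38 and 0.21) lie below the line.

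Heat shock genes had the highest median time change of the 30 gene lists described, which were chosen with earlier results of these data known. All list counts below stand beside 2.14% higher and 3.24% lower over all genes tested in wounded shoots, and 1.38% and 1.51% in unwounded shoots. For the difference between the treatments the shares were 2.72% higher and 5.07% lower. Of 24 members tested, 23 rose in wounded shoots and the other one was not called, with a median log2 difference of 4.08 and a range of 0.41 to 8.27. The same number, 23, rose in unwounded shoots with a median of 2.82. In 13 members the rise was larger in wounded than in unwounded shoots, and in none was it smaller. All of the 23 calls held when any 1 wounded sample was left out, and 13 remained when a probe had to be well above background on all 8 arrays. A member that is dim at 30 min passed the filter through its level at 360 min, so the count describes the members that were measured and not every heat shock gene.

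HSP90.1, the heat-inducible cytosolic chaperone of the HSP90 family, had levels of 7.68 and 7.91 at 30 min and 14.81 and 14.88 at 360 min. Both 360 min samples stood far above both 30 min samples, and the difference was 7.05 ± 0.25 (SE, n = 2 per time), a 133-fold rise (limma adjusted p = 3.78e-28). In unwounded shoots the same probe moved from 7.72 and 7.86 to 14.10 and 14.47, a difference of 6.49, so most of the rise was shared. HSP70, a cytosolic chaperone, went from 7.24 and 7.23 to 14.10 and 14.06, a difference of 6.84 (limma adjusted p = 8.22e-28) against 6.67 in unwounded shoots. Its difference between the treatments, 0.18, did not pass the test (limma adjusted p = 0.381). HSP101, which pulls proteins out of aggregates, went from 6.62 and 6.47 to 13.37 and 12.79, a difference of 6.54 (limma adjusted p = 1.9e-26). Here the wounded shoots rose by 1.04 more than the unwounded shoots (limma adjusted p = 0.0189).

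The small heat shock proteins bind unfolding proteins and keep them soluble. AT1G07400, a gene of this family, had the largest difference of all genes called, from 6.78 and 6.63 to 15.20 and 14.74, which is 8.27 ± 0.25 (limma adjusted p = 8.2e-31, 3 of 4 arrays well above background at 30 min). Its rise was 0.86 larger than in unwounded shoots (limma adjusted p = 0.041). AT1G59860 rose by 6.39 (limma adjusted p = 2.4e-26), 1.23 more than in unwounded shoots. These genes have close relatives in the genome, so part of a probe's signal may come from another member and the values are uncertain for a single gene. HSP23.6-MITO, a mitochondrial small heat shock protein, was not well above background on any 30 min array, where it read 5.95 and 6.01. It reached 11.95 and 10.94 at 360 min, at least 35.9-fold higher. AT1G52560, also of the small heat shock family, read 6.01 and 5.98, likewise not well above background, and then 9.19 and 8.14, at least 5.22-fold higher.

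Regulators of the heat response rose as well. HSFA2, a heat shock factor that prolongs the response, had 7.31 and 8.58 at 30 min and 12.82 and 12.59 at 360 min, a difference of 4.76 ± 0.28 (limma adjusted p = 3.04e-19). The 30 min replicates lay more than 1 unit apart, yet both were well below the 360 min samples. In unwounded shoots HSFA2 stood at 7.28 and 8.55 and then at 11.36 and 11.39, so the wounded rise was 1.3 larger (limma adjusted p = 0.00224). MBF1C, a coactivator needed for heat tolerance, went from 8.31 and 8.06 to 13.12 and 13.03, a rise of 4.89 that was 1.12 larger than in unwounded shoots (limma adjusted p = 0.000808). HSFA7A, a factor of the same class as HSFA2, rose from 8.43 and 9.25 to 11.55 and 11.41, by 2.64, and by 1.08 more than in unwounded shoots (limma adjusted p = 0.00148). HSFB2A, a class B factor of the repressor type, was the member not called, with 8.03 and 7.49 and then 8.08 and 8.24 (0.41, limma adjusted p = 0.535).

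Among genes that passed both tests, the highest differences between the treatments were in a pair of chaperone genes. HSP70B, a cytosolic HSP70, had 6.76 and 6.29 at 30 min and 10.96 and 9.47 at 360 min, a rise of 3.69 (limma adjusted p = 2.75e-14). Unwounded shoots went from 6.86 and 6.38 to 8.38 and 8.28, which left an excess of 1.98 (limma adjusted p = 0.0491). AT1G71000, a DnaJ-domain protein of the kind that assists HSP70, rose from 7.02 and 7.52 to 10.40 and 10.52, by 3.19, and by 1.95 more than in unwounded shoots (limma adjusted p = 0.00128). The co-chaperones ROF2, a prolyl isomerase, and Hop3 rose by 5.95 (limma adjusted p = 3.28e-25) and 6.34. ROF2 was well above background on 2 of 4 arrays at 30 min, and Hop3 had a value from 1 replicate only at 360 min. AT5G12110, a subunit of elongation factor 1B that belongs to no list, rose beside them from 7.52 and 7.32 to 12.85 and 12.40, by 5.21 (limma adjusted p = 1.48e-22) against 4.79 in unwounded shoots.

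**Figure D2:**
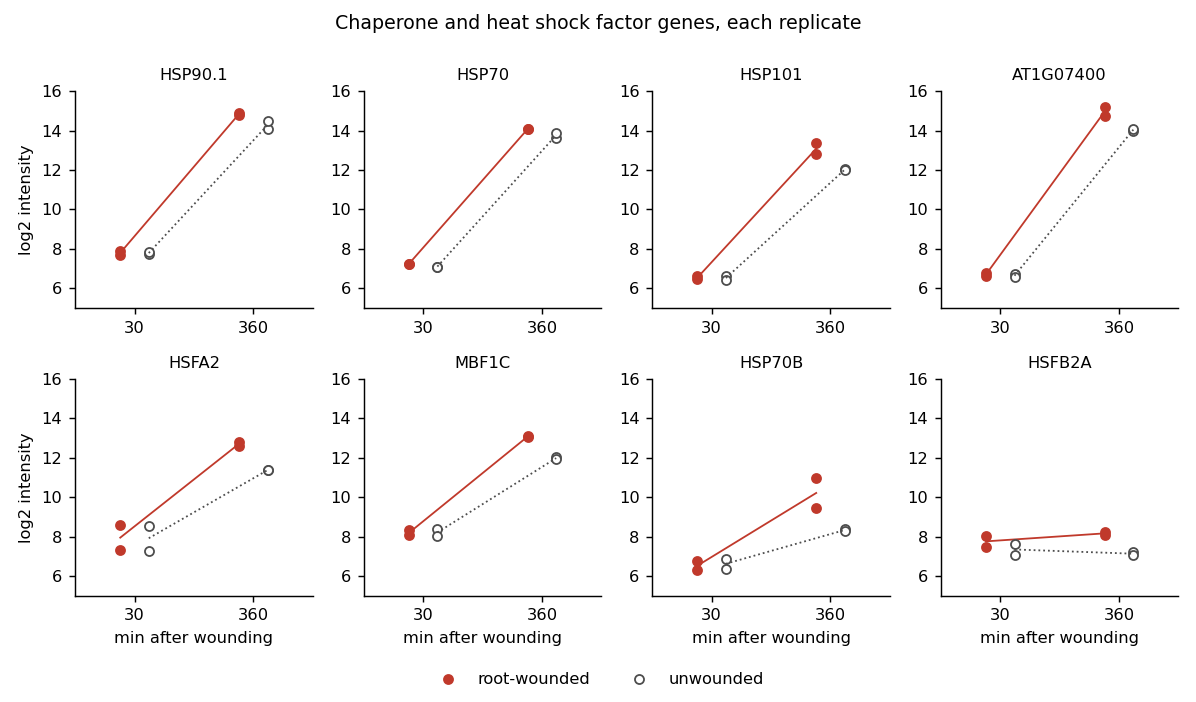
Log2 intensity of 8 heat shock genes at 30 and 360 min after wounding, with filled red points for wounded and open grey points for unwounded samples and lines that join the means. All but HSFB2A climb in both treatments, and HSP70B shows the largest excess of the wounded over the unwounded change among the 8 (1.98).

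Genes of jasmonate signalling stood high at 30 min and low at 360 min. Of 17 members tested 10 fell, 0 rose, and the median log2 difference was -1.39. In unwounded shoots limma called 0 of the 17 (5 at an unadjusted p under 0.05), and 10 fell more in wounded than in unwounded shoots. JAZ9, a repressor of the pathway, had 13.29 and 13.15 at 30 min and 9.47 and 9.41 at 360 min, a difference of -3.79 (13.8-fold lower, limma adjusted p = 2.4e-17). In unwounded shoots JAZ9 was at 9.20 and 9.76 and then at 9.03 and 9.42, so the wounded samples at 360 min were back near the unwounded level. JAZ6 went from 12.11 and 12.01 to 8.27 and 7.75, a difference of -4.05 (limma adjusted p = 3.62e-18), and JAZ1 from 10.78 and 10.79 to 6.98 and 7.19, a difference of -3.70 (limma adjusted p = 5.54e-17).

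MYC2, the main transcription factor held by the JAZ proteins, had 13.08 and 12.63 at 30 min and 9.77 and 9.27 at 360 min, a difference of -3.34 (limma adjusted p = 9.48e-15). Both 360 min samples lay below both 30 min samples, and the unwounded samples stayed between 8.57 and 9.34. JAM1, a factor that opposes MYC2, went from 10.52 and 9.62 to 8.15 and 8.20, a difference of -1.90 (limma adjusted p = 4.1e-07). JAZ10, a repressor with splice forms that resist removal, went from 9.58 and 9.80 to 8.54 and 7.92, a difference of -1.46 (limma adjusted p = 4.94e-05), and lost the call without replicate 2 at 360 min. JAZ2, JAZ5, JAZ3 and JAM2 fell by 2.15, 1.90, 1.39 and 1.03, and JAM2 lost the call without either 360 min replicate. The receptor gene COI1 differed by 0.12 and the factors MYC3 and MYC4 by 0.01 and 0.30, none of which passed the test.

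Genes of jasmonate synthesis split by enzyme. Of 15 members tested 6 fell and 2 rose, with a median log2 difference of -0.38, and 8 fell relative to unwounded shoots. LOX3, a 13-lipoxygenase at the start of the pathway, had 11.71 and 11.35 at 30 min and 7.42 and 7.17 at 360 min, a difference of -4.23 (18.8-fold lower, limma adjusted p = 4.98e-19). Unwounded shoots held 8.58 and 7.93 and then 7.31 and 7.17, a smaller fall of 1.02 (limma adjusted p = 0.028). OPR3, the peroxisomal reductase of the pathway, went from 13.70 and 13.45 to 10.25 and 10.14, a difference of -3.38 (limma adjusted p = 2.01e-15), while unwounded shoots stayed between 9.67 and 9.94. OPCL1, which activates the precursor for beta-oxidation, went from 11.83 and 11.63 to 8.35 and 7.88, a difference of -3.62 (limma adjusted p = 2.62e-16).

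AOS, the allene oxide synthase, moved less, from 12.77 and 13.45 at 30 min to 12.14 and 12.20 at 360 min. The difference was -0.94 (limma adjusted p = 0.0167), the groups did not overlap, and the call was lost without replicate 2 at 30 min and without either 360 min replicate. Its 360 min levels were still above the 11.24 and 11.40 of unwounded shoots. LOX2, the most studied 13-lipoxygenase of leaf chloroplasts, moved the other way, from 13.28 and 13.01 to 14.12 and 13.93, a difference of 0.88 (limma adjusted p = 0.0233) that was lost without either 360 min replicate. Unwounded shoots held 11.82 and 11.40 and then 12.25 and 12.34, so LOX2 was higher in wounded shoots at both times, and its difference between the treatments, 0.20, did not pass the test (limma adjusted p = 0.369). KAT2, a thiolase of beta-oxidation, rose from 8.58 and 8.13 to 9.21 and 9.37 (0.94, limma adjusted p = 0.0146) beside 0.88 in unwounded shoots. JAR1, the enzyme that joins jasmonate to isoleucine, fell from 10.33 and 9.85 to 9.15 and 9.25 (limma adjusted p = 0.0235). The calls of KAT2 and JAR1 were lost without either 360 min replicate, and that of JAR1 also without replicate 1 at 30 min. Without either 360 min replicate 4 synthesis genes in all passed the test.

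Genes of jasmonate turnover fell as well, in 4 of 9 members tested, with a median log2 difference of -0.65. Limma called 0 of the 9 in unwounded shoots (4 at an unadjusted p under 0.05), and 5 fell relative to them. CYP94C1, an oxidase of the conjugate, had 10.25 and 9.83 at 30 min and 6.52 in the replicate measured at 360 min, a difference of -3.53. A gene with 1 sample at a time takes the spread in the test from the other time and from the prior over all genes. This holds for CYP94C1 here and for Hop3, WRKY40, CCA1 and LHCB2.3 elsewhere. The single sample is unchecked in each, so the difference is given without a p-value. IAR3, an amidohydrolase that splits the conjugate, went from 10.04 and 9.52 to 7.84 and 7.81, a difference of -1.95 (limma adjusted p = 8.37e-08), and both 360 min samples were below both 30 min samples. The 4 calls were 2 without replicate 2 at 360 min.

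Output genes of the pathway behaved differently, with 3 higher and 1 lower of 15 tested and a median log2 difference of 0.33. VSP1, a vegetative storage protein, had 8.54 and 8.41 at 30 min and 9.63 and 10.10 at 360 min, a difference of 1.38 (limma adjusted p = 9.79e-05) that was lost without replicate 2 at 360 min. Unwounded shoots stayed between 6.42 and 7.08. VSP2, its close relative, had 10.44 and 9.71 and then 10.55 and 10.65, and its 0.53 did not pass the test (limma adjusted p = 0.346), although it exceeded the unwounded change by 1.18 (limma adjusted p = 0.00516). CORI3, a cystine lyase induced by jasmonate, rose from 10.05 and 9.96 to 11.49 and 11 (1.24, limma adjusted p = 0.000563), a call lost without replicate 1 at 360 min. CLH1, a chlorophyllase, fell from 12.44 and 12.28 to 10.61 and 10.40 (-1.85, limma adjusted p = 1.97e-07), while unwounded shoots stayed between 9.70 and 9.88. The number of output genes called was 2 without either 360 min replicate and 7 without replicate 1 at 30 min.

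**Figure D3:**
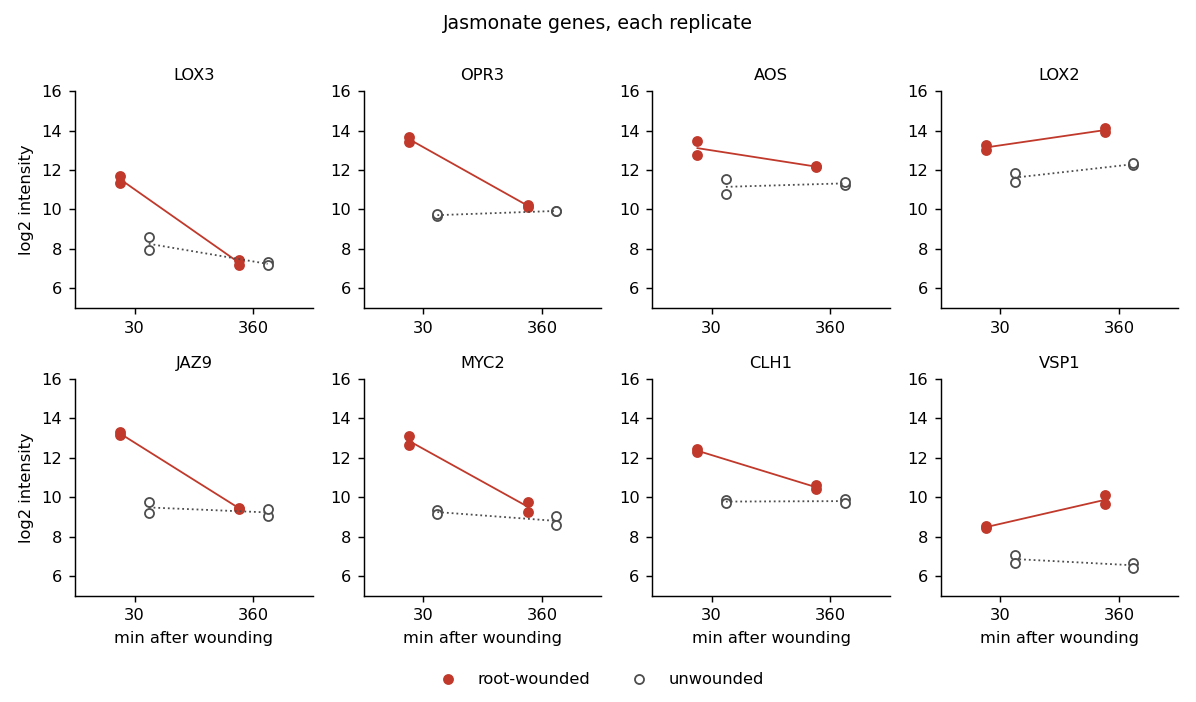
Log2 intensity of 8 jasmonate genes at 30 and 360 min, with filled red points for wounded and open grey points for unwounded samples and lines that join the means. LOX3, OPR3, JAZ9, MYC2 and CLH1 drop from a high 30 min level towards the unwounded level, while LOX2 and VSP1 stay above it or climb away from it.

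Genes for other transcription factors of early stress responses also fell. In the list of ERF and DREB factors, which bind the promoters of ethylene and cold or drought genes, 10 of 20 fell and 1 rose, with a median of -0.75, and the 10 lower calls were 6 without either 360 min replicate. ERF1A, an activator of the ERF family, went from 12.34 and 11.70 to 8.86 and 8.77, a difference of -3.21 (limma adjusted p = 3.19e-14), against -0.01 in unwounded shoots. ERF2 and ERF13, of the same family, fell from 10.44 and 10.02 to 7.58 and 7.35 and from 10.97 and 10.57 to 8.36 and 8.80. The differences were -2.77 (limma adjusted p = 2.97e-12) and -2.19 (limma adjusted p = 4.79e-09). DREB2A, a factor of the drought and heat response, was the member that rose, from 7.04 and 7.16 to 7.75 and 8.21 (0.88, limma adjusted p = 0.0259). CBF3, a cold response factor, fell from 7.22 and 6.89 to 5.97 and 6.15 (-1.0, limma adjusted p = 0.00734), and by 1.34 in unwounded shoots. DREB2A and CBF3 lost their calls without either 360 min replicate.

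Of the WRKY and zinc finger factors 6 of 15 fell and 1 rose, with a median of -0.59, and 3 fell when either 360 min replicate was left out. WRKY18, a factor of pathogen defence, had 10.81 and 10.42 at 30 min and 8.44 and 8.26 at 360 min, a difference of -2.27 (limma adjusted p = 1.25e-09). Unwounded shoots held 7.91 and 7.73 and then 8.52 and 8.43, so at 360 min the wounded samples were slightly below the unwounded ones. ZAT10, a zinc finger repressor of stress responses, fell from 10.47 and 10.04 to 7.23 and 7.82 (-2.73, limma adjusted p = 1.02e-11). WRKY70, a factor on the salicylate side of defence, rose from 8.93 and 8.39 to 9.40 and 9.82 (0.95, limma adjusted p = 0.0151), beside 1.22 in unwounded shoots, and lost the call without either 360 min replicate.

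Calcium and touch genes fell in 8 of 17 cases and rose in none, with a median of -1.09. TCH4, a xyloglucan endotransglucosylase named for its response to touch, had 11.62 and 10.76 at 30 min and 8.08 and 7.70 at 360 min, a difference of -3.30 (9.87-fold lower, limma adjusted p = 3.58e-14). Unwounded shoots held 8.92 and 8.23 and then 9.05 and 8.77, so TCH4 was higher than unwounded at 30 min and lower at 360 min. Its difference between the treatments, -3.64, was the lowest of all genes that were called in both tests (limma adjusted p = 6.01e-05). CML9, a calmodulin-like calcium sensor, fell from 11.93 and 12.02 to 10.01 and 9.96 (-1.99, limma adjusted p = 3.07e-08) but also by 1.49 in unwounded shoots. CPK28, a calcium-dependent kinase of immune signalling, fell from 9.27 and 8.86 to 7.31 and 7.51 (-1.66, limma adjusted p = 3.31e-06). CML39, another calmodulin-like protein, was not well above background on any 360 min array. Its fall from 7.20 and 7.07 to readings of 5.97 and 5.99 was thus at least 2.18-fold. CML39 lost the call without either 360 min replicate, and the number of genes of this list that fell was 5 without replicate 2 at 360 min.

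A gene outside the lists, AT5G56980, fell from 11.93 and 11.49 to 7.81 and 7.48 (-4.07, limma adjusted p = 3.47e-18), with -0.84 in unwounded shoots, which did not pass the test. AT4G36850 fell from 10.61 and 9.85 to 6.79 and 7.01 (-3.33, limma adjusted p = 1.61e-14), of which 2.82 was also seen in unwounded shoots. The files give no named role for either gene.

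Most clock genes that were called in wounded shoots were called in unwounded shoots too. Of 13 evening-phase genes tested 7 rose and 1 fell in wounded shoots, with a median log2 difference of 1.27, and the same counts, 7 and 1, held in unwounded shoots with a median of 1.2. COR27, a cold-regulated gene with an evening peak, had 6.60 and 6.46 at 30 min and 8.56 and 8.48 at 360 min, a difference of 1.99 (limma adjusted p = 3.16e-08, 2 of 4 arrays well above background at 30 min). Unwounded shoots held 6.49 and 6.50 and then 8.59 and 8.49, and the difference of -0.06 between the treatments did not pass the test (limma adjusted p = 0.693). PRR3, a pseudo-response regulator, rose from 6.97 and 6.46 to 8.26 and 8.43 (1.63, limma adjusted p = 5.12e-06). ELF4 and LUX, components of the evening complex that represses growth genes, rose by 1.44 (limma adjusted p = 5.66e-05) and 1.53 (limma adjusted p = 1.97e-05). The RNA-binding protein GRP7 rose from 9.19 and 8.76 to 10.57 and 10.44 (1.53, limma adjusted p = 1.6e-05).

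PRR5, a pseudo-response regulator that peaks before TOC1, fell from 8.36 and 8.03 to 6.51 and 6.85 (-1.52, limma adjusted p = 1.99e-05). Of 9 morning and day genes tested 2 fell and 1 rose. The counts were the same in unwounded shoots but not all of the genes, since CCA1 fell in wounded shoots and was not called in unwounded shoots. The 3 calls in wounded shoots were 1 without replicate 2 at 360 min and 5 without replicate 2 at 30 min. LNK2, a light-inducible coactivator of clock genes, went from 8.45 and 8.45 to 6.57 and 6.86, a difference of -1.74 (limma adjusted p = 9.42e-07) against -1.65 in unwounded shoots, and no sample of one time overlapped those of the other. CCA1, a morning repressor, had 7.69 and 7.42 at 30 min and 6.31 in the replicate measured at 360 min (-1.24). RVE2, a related MYB factor, was not well above background on any 30 min array, with readings of 6.23 and 6.12. It reached 7.18 and 7.49, at least 2.06-fold higher. TOC1, an evening repressor, differed by 0.31 (limma adjusted p = 0.714) and PRR9, a morning regulator, by -0.07 (limma adjusted p = 0.969). RVE2 lost the call without replicate 2 at 360 min. LHY, the partner of CCA1, was too dim to be kept and has no value here.

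Of 23 light-harvesting and photosystem genes tested 2 fell in wounded and 4 in unwounded shoots, and none rose in either. Over all genes tested 3.24% fell in wounded and 1.51% in unwounded shoots. The time change was higher in wounded shoots for 9 of the 23, beside 2.72% of all genes tested. Without either 360 min replicate 1 of the 23 fell in wounded shoots. The probes of 9 of the 23, including 3 of the 9 with a higher time change, were saturated on at least 1 array. LHCB2.3, a protein of the photosystem II antenna, had 13.21 and 13.35 at 30 min and 10.76 in the replicate measured at 360 min (-2.52), beside -3.47 in unwounded shoots. LHCB1.1, the most abundant kind of antenna protein, had 15.54 and 15.50 and then 14.77 and 15.03 in wounded shoots, with 2 of 4 arrays saturated at 30 min, so no exact difference is given. Unwounded shoots went from 15.73 and 15.61 to 14.21 and 14.22, so LHCB1.1 was above the unwounded level in both wounded samples at 360 min, where no array was saturated. The LHCB1 genes are nearly identical in sequence and may share probe signal. Of 12 carbon fixation genes GAPB, a chloroplast glyceraldehyde phosphate dehydrogenase, fell (-0.98, limma adjusted p = 0.00806), and it lost the call without either 360 min replicate.

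Starch breakdown genes rose in 6 of 15 cases, with a median log2 difference of 0.40, and in 3 of 15 in unwounded shoots. SEX4, a phosphatase that removes phosphate from starch glucans, had 10.27 and 9.86 at 30 min and 11.71 and 11.61 at 360 min, a difference of 1.60 (limma adjusted p = 6.93e-06). Unwounded shoots held 10.19 and 9.96 and then 10.93 and 11.03, so the wounded rise was larger by 0.69 (limma adjusted p = 0.0143). BAM5, a beta-amylase, rose from 6.54 and 6.73 to 8.11 and 8.26 (1.55, limma adjusted p = 1.02e-05), and ISA3, a debranching enzyme, from 8.03 and 8.10 to 9.58 and 9.08 (1.26, limma adjusted p = 0.000428). The dikinases GWD1 and PWD, which phosphorylate starch, rose by 1.19 and 1.21. The number that rose was 3 without either 360 min replicate, with GWD1 lost in both cases, ISA3 without replicate 1 and PWD without replicate 2. Of 15 starch synthesis genes 3 rose and 2 fell, with APL3, a large subunit of ADP-glucose pyrophosphorylase, going from 7.51 and 7.13 to 8.81 and 8.49 (1.33, limma adjusted p = 0.000186). APL3 lost its call without replicate 1 at 360 min, and 1 gene of the list was then called.

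Sugar starvation genes that were called over time fell in each treatment. Of 18 tested 5 fell in wounded and 8 in unwounded shoots, beside 3.24% and 1.51% of all genes tested, and 13 were not called in wounded shoots. The time change was higher in wounded shoots for 8, beside 2.72% of all genes tested. The list's median log2 difference between the treatments was 0.54. AT3G15450 had 10.82 and 10.42 at 30 min and 9.46 and 9.12 at 360 min in wounded shoots (-1.33, limma adjusted p = 0.000198), against 12.09 and 12.03 and then 9.25 and 9.41 in unwounded shoots. The wounded samples were thus below the unwounded ones at 30 min and near them at 360 min (difference 1.4, limma adjusted p = 0.0132). KMD4, a kelch F-box protein, had 8.38 and 8.40 and then 8.81 and 9.56, and its 0.79 did not pass the test (limma adjusted p = 0.0623). In unwounded shoots KMD4 held 9.76 and 10.06 and then 9.07 and 9.54, and the treatments differed by 1.4 in their time change (limma adjusted p = 0.00468). DIN1, a gene induced by darkness, fell from 9.91 and 9.44 to 8.05 and 8.57 (-1.37, limma adjusted p = 0.000166), and TPS11, a trehalose phosphate synthase-like protein, from 9.21 and 8.53 to 7.62 and 7.61 (-1.26, limma adjusted p = 0.000575). AT3G15450 lost the call without replicate 2 and DIN1 without replicate 1 at 360 min. Without replicate 1 at 360 min 2 genes of the list were called, and without replicate 2 at 30 min 8 were.

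Of 22 flavonoid and anthocyanin genes tested 9 rose and 3 fell, with a median of 0.61, against 1 and 2 in unwounded shoots, and 9 had a higher time change in wounded shoots. DFR, the dihydroflavonol reductase, had 6.47 and 6.29 at 30 min and 8.29 and 8.35 at 360 min, a difference of 1.94 (limma adjusted p = 6.41e-08, 2 of 4 arrays well above background at 30 min). Unwounded shoots stayed between 6.32 and 6.64, so DFR was higher in the wounded 360 min samples than in all others. LDOX, the next enzyme of the pathway, rose from 6.20 and 6.64 to 8.06 and 8.46 (1.84, limma adjusted p = 3.86e-07), and UF3GT, a glycosyltransferase, from 6.57 and 6.61 to 8.65 and 8.87 (2.17, limma adjusted p = 3.15e-09). CHS, the entry enzyme of flavonoid synthesis, rose from 8.17 and 7.71 to 9.35 and 9.16 (1.32, limma adjusted p = 0.00022), and its excess of 0.56 over unwounded shoots did not pass the test (limma adjusted p = 0.15). MYBL2, a repressor of the pathway, fell from 8.53 and 8.24 to 7.14 and 6.87 (-1.38, limma adjusted p = 9.77e-05), and by 2.39 in unwounded shoots. PAL1 and PAL2, which feed the whole phenylpropanoid pathway, fell by 0.97 and 1.51, and PAL1 lost the call without either 360 min replicate. The list had 4 genes that rose without replicate 1 and 5 without replicate 2 at 360 min.

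Nitrate reduction genes fell, in 3 of 22 members of the nitrate list, and 6 fell relative to unwounded shoots. Over all genes tested these shares were 3.24% and 5.07%. NIA1, a nitrate reductase, had 11.51 and 11.19 at 30 min and 8.91 and 8.94 at 360 min, a difference of -2.42 (5.36-fold lower, limma adjusted p = 1.42e-10). Unwounded shoots held 11.23 and 11.21 and then 10.46 and 10.27, a fall of 0.86 (limma adjusted p = 0.045). NIA2, the major nitrate reductase, fell from 11.91 and 11.46 to 9.83 and 10.17 (-1.68, limma adjusted p = 2.82e-06). NIR1, the nitrite reductase that acts after them, fell from 12.35 and 11.95 to 11.36 and 11.32 (-0.81, limma adjusted p = 0.045), and lost the call without replicate 1 at 30 min or either 360 min replicate. The nitrate list had 5 lower genes without replicate 2 at 30 min and 2 when any other wounded sample was left out.

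Of 22 genes of glucosinolate and tryptophan synthesis 6 fell and 0 rose, with a median of -0.48, and 10 fell relative to unwounded shoots. SOT16, a sulfotransferase of the last step, had 12.41 and 12.21 at 30 min and 10.71 and 10.65 at 360 min, a difference of -1.63 (limma adjusted p = 3.31e-06). Unwounded shoots held 10.17 and 10.07 and then 10.89 and 10.82, so the wounded samples were above at 30 min and slightly below at 360 min (difference -2.37, limma adjusted p = 0.000115). MYB34, a regulator of these genes, fell from 10.93 and 10.29 to 8.98 and 9.22 (-1.51, limma adjusted p = 2.99e-05), and CYP83B1, an oxime-metabolising enzyme, from 9.84 and 9.72 to 8.91 and 7.94 (-1.35, limma adjusted p = 0.000337). CYP83B1 lost its call without replicate 2 at 360 min, and the list then had 2 genes called, against 3 without replicate 1 at 360 min and 9 without replicate 2 at 30 min.

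**Figure D4:**
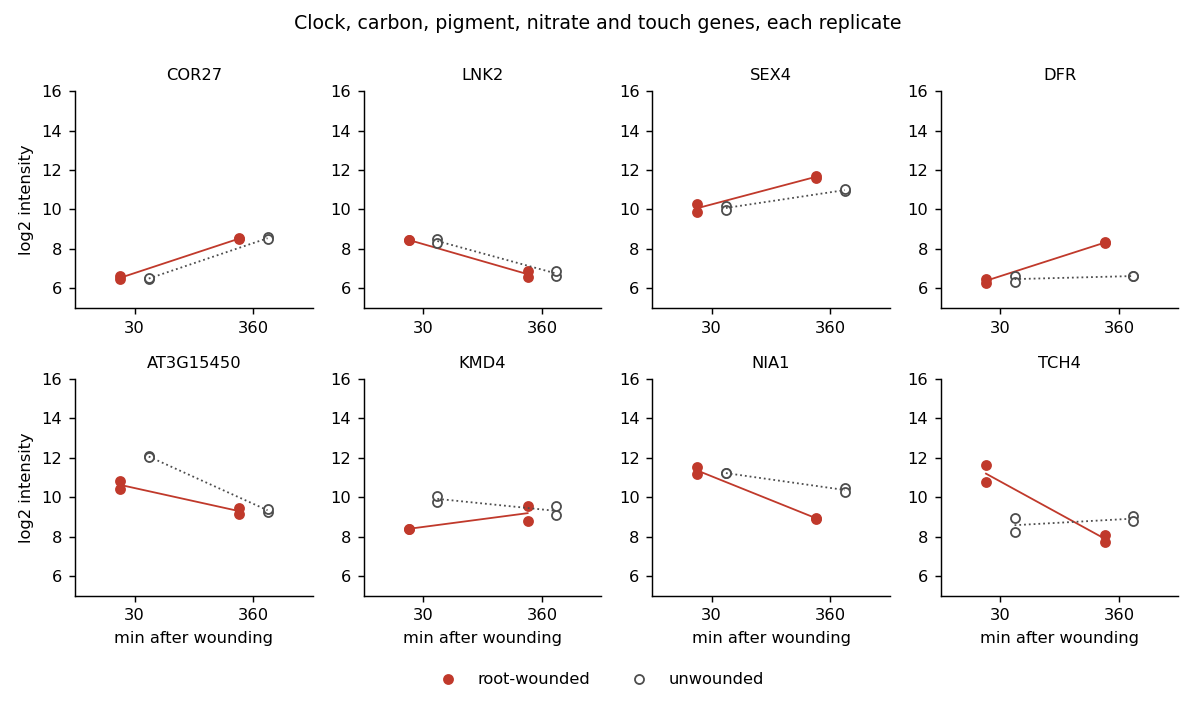
Log2 intensity at 30 and 360 min of 8 genes of the clock, starch, pigment, sugar starvation, nitrate and touch lists, with filled red points for wounded and open grey points for unwounded samples and lines that join the means. COR27 and LNK2 overlap between treatments, DFR climbs in the wounded samples, AT3G15450 and KMD4 start low in the wounded samples, and NIA1 and TCH4 end below the unwounded level.

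Growth and wall genes that were called in wounded shoots fell. Over all genes tested 5.38% were called in wounded shoots, 2.14% higher and 3.24% lower, and 5.07% fell relative to unwounded shoots. The growth list had a share close to this, so its count is no result about the list. GASA6, a gibberellin-regulated peptide gene, fell from 11.57 and 11.41 to 8.59 and 8.57 (-2.91, limma adjusted p = 3.33e-13), with -2.45 in unwounded shoots, and was the 1 gene of 13 growth genes called, against 3 called without replicate 2 at 30 min. Of 20 genes of cell wall loosening 5 fell and 0 rose, and 8 fell relative to unwounded shoots. EXPA1, an expansin, fell from 11.56 and 11.15 to 9.55 and 9.41 (-1.88, limma adjusted p = 1.81e-07), beside -1.58 in unwounded shoots, and XTH18, a xyloglucan enzyme, from 8.69 and 8.58 to 7.30 and 7.37 (-1.3, limma adjusted p = 0.0002). The wall list had 9 genes that fell without replicate 2 at 30 min and 3 without either 360 min replicate. Of 18 aquaporins 2 rose and 2 fell, with TIP2.1, a vacuolar water and ammonia channel, going from 13.13 and 13.05 to 11.24 and 10.32 (-2.31, limma adjusted p = 3.18e-09) and PIP2.3, a plasma membrane channel, from 7.25 and 7.07 to 8.71 and 8.84 (1.61, limma adjusted p = 4.47e-06). PIP2.3 has near-identical relatives, so its probe signal is uncertain for the single gene. The aquaporin calls were 7 without replicate 2 at 30 min and 2 without either 360 min replicate.

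Among 28 abscisic acid and dehydration genes 5 rose and 4 fell, with a median of -0.06, and 4 and 6 did so in unwounded shoots. Over all genes tested 2.14% rose and 3.24% fell in wounded shoots, and 1.38% rose and 1.51% fell in unwounded shoots. The list had 3 genes that rose without replicate 2 at 360 min, and 2 that fell without replicate 1 at 30 min or at 360 min, against 7 that fell without replicate 2 at 30 min. COR15B, a chloroplast protein of freezing tolerance, rose from 10.19 and 9.82 to 11.64 and 12.04 (1.84, limma adjusted p = 3.83e-07), beside 1.39 in unwounded shoots. RD26, a NAC factor of dehydration, fell from 9.48 and 8.74 to 7.67 and 7.63 (-1.46, limma adjusted p = 5.77e-05). Of 15 oxidative stress genes 5 rose and 1 fell. CAT2, the main leaf catalase, fell from 11.18 and 11.12 to 8.52 and 8.68 (-2.55, limma adjusted p = 2.41e-11), and by 2.24 in unwounded shoots. APX2, a heat-inducible ascorbate peroxidase, was not well above background on any 30 min array, with readings of 6.08 and 6.07. It reached 7.80 and 7.27, at least 2.39-fold higher. The oxidative stress list had 0 genes that rose without replicate 1 at 360 min, APX2 included, and 3 without replicate 2 at 360 min. Of 12 iron genes 1 rose and 1 fell, and BHLH100, a factor of the iron deficiency response, went from 6.99 and 6.80 to 8.53 and 8.07 (1.4, limma adjusted p = 7.96e-05), a call lost without replicate 1 at 360 min. The iron list had 0 calls without that replicate, 1 without replicate 2 at 360 min and 4 without replicate 1 at 30 min.

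Counts for the hormone lists that remain stand beside 5.38% called over all genes tested, 2.14% higher and 3.24% lower. Cytokinin response genes fell in 2 of 16 cases, auxin response genes rose in 1 and fell in 2 of 22, and ethylene genes fell in 2 of 14. Leaving out replicate 2 at 30 min raised the calls to 6, 7 and 3, and leaving out replicate 1 at 360 min gave 0 in each. ARR9, a cytokinin response regulator, fell from 8.44 and 7.68 to 7.09 and 7.06 (-0.99, limma adjusted p = 0.0117), a call lost without replicate 1 at 30 min or either 360 min replicate. Limma called 0 of 16 cell cycle genes (1 at an unadjusted p under 0.05) and 0 of 13 salicylate genes (2 at an unadjusted p under 0.05). Cell cycle differences ran from -0.41 to 0.53 and salicylate differences from -0.70 to 0.57. With 2 samples per time the median standard error was 0.253 log2 units, and NIR1 only just passed at -0.81 (limma adjusted p = 0.045). Smaller differences would often have been missed, so genes without a call cannot be taken as unchanged.

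Of 15 reference genes 1 was called, beside 5.38% of all genes tested. UBQ10, a polyubiquitin gene, rose from 13.20 and 13.20 to 14.24 and 14.15 (0.99, limma adjusted p = 0.00692), against 0.29 in unwounded shoots, and lost the call without either 360 min replicate. Polyubiquitin genes share repeated sequence, so its probe may read relatives too. ACT2, an actin gene, held 12.58 and 12.39 and then 12.41 and 12.40 (-0.09, limma adjusted p = 0.956).

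**Figure D5:**
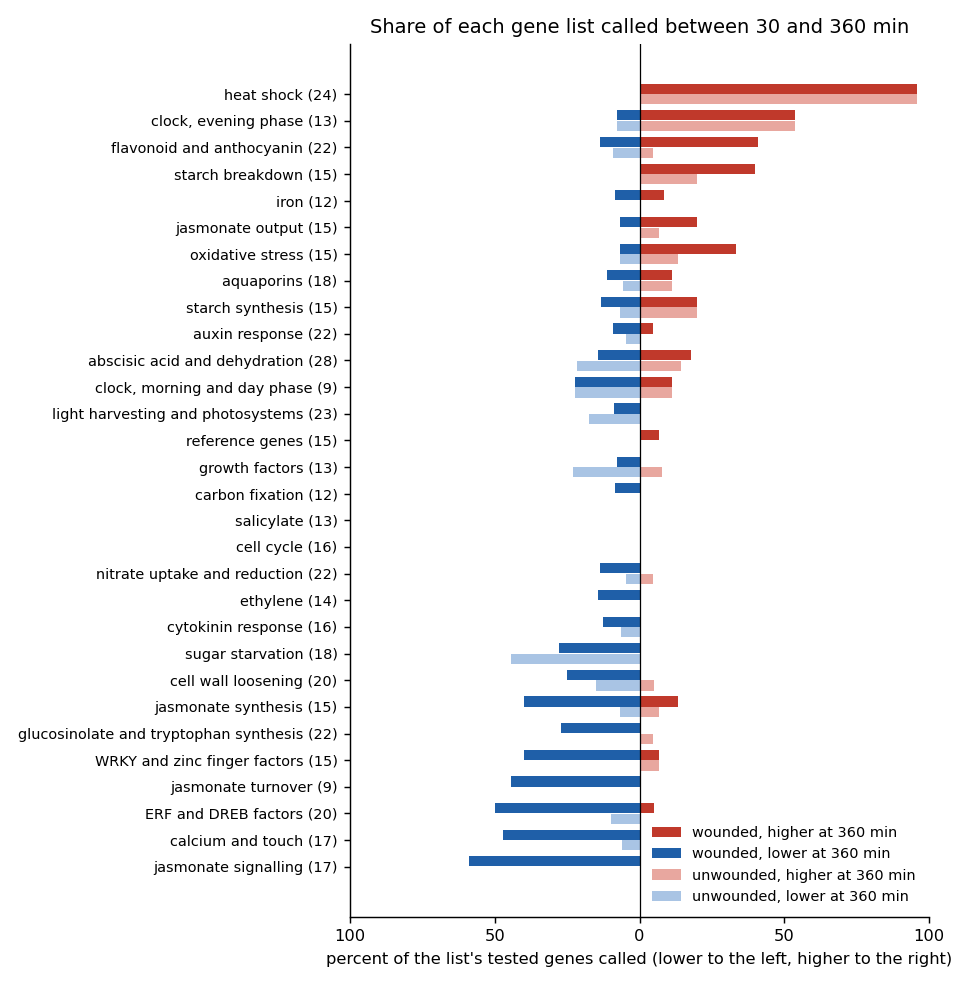
Percent of the tested genes of each list that were called between 30 and 360 min, lower to the left and higher to the right, in wounded (dark) and unwounded (light) shoots, with lists ordered by the wounded median. Heat shock genes lead the higher side in both (23 of 24), and jasmonate signalling, with 10 of 17 lower in wounded and 0 in unwounded shoots, leads the lower side.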

How the data were processed

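The authors deposited, per the file headers, the Agilent scanner output of 8 arrays as mean and background intensity per spot and channel, with the log10 ratio of red over green. Agilent Feature Extraction 7.1.1 made them, per the submitters' processing notes. The deposited table of log10 ratios equals the scanner files' ratio and was used as an alternative only. Of 22575 spots 1075 are controls.

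From the deposited intensity values, background was corrected in limma 3.58.1 (R 4.3.3) with normexp and an offset of 50, dyes were normalised by loess and channels by Aquantile. Controls and outlier spots had no weight, and a dye pair with an outlier spot gave no value. Genes well above background in the wounded channel on all 4 arrays of at least 1 time were kept, 18712 of 21500, and 33 of them lacked a value at a time. limma's lmFit and eBayes were run on 4 samples for each treatment, and on within-array ratios for the difference between treatments. With 2 residual degrees of freedom the test leans on a prior of 47.4 over all wounded genes. The replicate 1 minus replicate 2 differences of the earlier and later time correlated across genes at 0.0336 in wounded and 0.0965 in unwounded shoots. For within-array ratios the value was -0.0341. With 2 replicates per time these values cannot decide whether the replicate numbers pair samples. Samples were fitted as unpaired. A probe not well above background on any array of a time gets a bound, the mean of the higher of its own signal and the lowest signal well above background on each array. Genes given with a bound have no p-value here, since they passed the filter through the other time only.

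In simulated data made for the wounded comparison on 18712 genes, 66 of 66 changes of log2 2, 30 of 67 of log2 1 and 0 of 67 of log2 0.5 were recovered, with 3 unchanged genes among 99 called. The simulated errors were independent between genes and samples and were drawn from the fit's own prior, without array or day errors. Far fewer genes were changed than the 1004 called in the data. These figures therefore give no false-call or recovery rate for the real samples. Of the array's gene codes 98.6% were named through RefSeq's TAIR10.1 gene table and 309 kept the code. The members, the 30 gene lists (539 genes, 528 on the array, 507 kept) and the 4 marker lists were chosen with earlier results of these data known. Genes were named by rule: the 12 highest and 12 lowest called differences without array overlap, up to 3 called genes per list, taken by smallest adjusted p, the 6 highest and 6 lowest of those also called for the difference between treatments, and a set of pathway genes regardless of p. Of the genes the rule named, 1 is counted but not reported here. Other list members are named to describe their list and were chosen after their values were seen. Alternatives covered background correction, scaling, filter, dye, prior, batch and left-out samples.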

Additional observations from a re-analysis of the deposited data

Results flagged for a closer look

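The log2 change from 30 to 360 min differed between wounded and unwounded shoots, by limma's test of the difference itself at an adjusted p under 0.05, for 63 of the 101 named genes, 35 with a lower and 28 with a higher change in wounded shoots. Each group had 2 samples, too few for a test of single samples that stand apart. This test was called for 7.79% of all genes tested.

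The lower values follow. Among genes of jasmonate synthesis and turnover the wounded minus unwounded values were OPR3 -3.59, LOX3 -3.21, OPCL1 -2.86, AOS -1.12, CYP94C1 -3.35, IAR3 -2.31 and AT5G05600 -1.79. CYP94C1 had 1 sample at 360 min. In genes of jasmonate signalling and output they were JAZ9 -3.53, JAZ6 -3.29, JAZ1 -2.92, MYC2 -2.89 and CLH1 -1.88. For stress transcription factor genes the values were ERF1A -3.20, ERF2 -2.41, ERF13 -2.37, ZAT10 -2.15, WRKY18 -2.92 and WRKY40 -1.45. WRKY40 had 1 sample at 30 min. Among touch, calcium and wall genes the wounded minus unwounded values were TCH4 -3.64, CPK28 -1.19 and XTH18 -1.07. In glucosinolate genes they were SOT16 -2.37, CYP83B1 -1.84 and MYB34 -1.34. For nitrate genes the values were NIA1 -1.56, NIA2 -1.16 and NIR1 -0.89. Among aquaporin, auxin, cytokinin, ethylene and catalase genes the wounded minus unwounded values were TIP2.1 -0.97, TIP1.2 -0.51, IAA6 -0.95, CKX4 -0.54, ACS6 -0.69 and CAT2 -0.31. In a gene outside the lists they were AT5G56980 -3.22.

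The higher values follow. Among heat shock genes the wounded minus unwounded values were HSP70B 1.98, AT1G71000 1.95, AT1G52560 1.76, HSFA2 1.3, AT1G59860 1.23, HSP101 1.04, AT1G07400 0.86 and HSP90.1 0.56. AT1G52560 was not well above background on any 30 min array, so its value is uncertain. In pigment genes they were DFR 1.78, LDOX 1.68 and UF3GT 1.58. For storage protein genes of the jasmonate output the values were VSP1 1.70 and VSP2 1.18. Among light-harvesting genes the wounded minus unwounded values were LHCB2.3 0.95, LHCB1.1 0.83 and LHCB4.2 0.55. LHCB1.1 was saturated on 2 of 4 arrays at 30 min, so its value is uncertain. LHCB2.3 had 1 sample at 360 min. In starch genes they were APL3 1.05, ISA3 0.70, SEX4 0.69 and SBE2.1 0.39. For sugar starvation genes the values were AT3G15450 1.4 and TPS11 0.68. Among iron, oxidative stress, auxin and ubiquitin genes the wounded minus unwounded values were BHLH100 1.71, GSTF6 0.57, IAA29 0.40 and UBQ10 0.70. In genes outside the lists they were AT1G26800 1.79 and AT4G14270 1.79.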

How the results depend on the processing

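The count of genes called in wounded shoots, 1004, was 307 with the scanner's processed signals (135 higher, 172 lower), 662 without the filter on dim probes, 481 with wounded RNA in Cy5 only, 584 in Cy3 only, 642 at an adjusted p under 0.01, 652 with at least a 2-fold change, and 410 to 2817 with 1 wounded sample left out. Centring arrays on their median gave 1013, split into 513 higher and 500 lower. The unwounded count, 539, was 312 with plain background subtraction, 284 with an offset of 10, 310 without the filter, 332 with outlier spots kept, 264 and 257 in Cy5 and Cy3 only, 282 at the 0.01 threshold, and 216 to 2544 with 1 sample left out. The count for the difference between treatments, 1456, was 530 in Cy3 only, 444 at the 0.01 threshold, 226 with at least a 2-fold change, 809 with the authors' deposited log ratio, and 171 to 1875 with 1 replicate left out. A replicate block gave 1118, 935 and 1330 for the 3 counts. The replicate 1 minus replicate 2 differences at 30 and at 360 min correlated at 0.0336 across genes in wounded shoots. The causes were not tested. Where 1 sample was left at a time, its spread was taken from the other time. PRR9, not called, changed sign to 0.0673 with processed signals, 0.178 in Cy3 only, and -0.193 to 0.0611 with 1 wounded sample left out (above 0 without replicate 2 at 30 or at 360 min), and ACT2, not called, to 0.188 with median centring and -0.181 to 0.0105 with 1 sample left out (above 0 without replicate 1 at 30 min). Of 96 named genes past the threshold, 57 passed it in every one of the alternatives that kept 0.05. The day of image extraction as a random block gave 967. The limits are 2 samples per time, dim 30 min arrays, and no labelled hour of harvest. Promoter motifs were not searched, since no sequence was used here.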

Other observations

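Genes outside the lists showed further groups, and those named here were chosen after their values were seen, so their values are a description. Among them were further chaperone genes called in both treatments. BIP1, a luminal binding protein that folds secreted proteins, went from 9.54 and 9.74 at 30 min to 13.18 and 12.58 at 360 min in wounded shoots, a difference of 3.24 (limma adjusted p = 2.26e-14) beside 2.96 in unwounded shoots. HSP81-2 and HSP81-3, cytosolic proteins of the HSP90 family, rose by 4.23 (limma adjusted p = 3.96e-19) and 3.34 (limma adjusted p = 2.63e-15), beside 3.83 and 3.08. ROF1, a prolyl isomerase related to ROF2, rose by 3.75 (limma adjusted p = 1.49e-16), beside 3.27. These family members have close relatives that may share probe signal.

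Also chosen were 4 B-box zinc finger genes, of a family with regulators of light signalling, and nothing is said here of its other members. BBX14 had 8.49 and 8.56 at 30 min and 10.21 and 10.59 at 360 min in wounded shoots, against 9.64 and 9.78 and then 9.97 and 10.37 in unwounded shoots. Its wounded change of 1.88 exceeded the unwounded change by 1.42 (limma adjusted p = 0.000384). BBX15 and BBX17 rose by 1.29 and 1.59 in wounded shoots, which was 1.2 (limma adjusted p = 0.000822) and 1.09 (limma adjusted p = 0.000738) more than the change in unwounded shoots. BBX28 went from 9.45 and 9.03 to 6.55 and 6.67, a difference of -2.63 beside -2.51 in unwounded shoots, and the difference between the treatments did not pass the test (limma adjusted p = 0.593).

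Some genes were called over time in unwounded but not in wounded shoots, with a called difference between the treatments. There were 23 such genes that rose in unwounded shoots, with a median log2 difference of 1.08 there and 0.208 in wounded shoots. There were 42 that fell in unwounded shoots, with medians of -1.14 and -0.418. AT2G20670 held 9.01 and 8.94 and then 8.95 and 9.15 in wounded shoots, against 11.05 and 10.93 and then 8.62 and 9.50 in unwounded shoots. PATL2 held 8.09 and 8.20 and then 7.68 and 7.50 in wounded shoots, against 7.54 and 7.77 and then 8.88 and 8.92 in unwounded shoots. XTH24, a xyloglucan enzyme, differed by -0.27 in wounded and 1.4 in unwounded shoots.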
